A study of Mus musculus with 24 samples.

Results

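Canonical Wnt signalling controls the stability of β-catenin. A secreted Wnt ligand binds a Frizzled receptor together with Lrp5 or Lrp6, the complex that marks β-catenin for destruction is held back, and β-catenin then enters the nucleus, where it works with DNA-binding factors of the Tcf/Lef family. A small set of genes responds to this input in many tissues, and several of them encode brakes on the pathway itself. In mouse embryonic stem cells (mESCs) Wnt input supports self-renewal, and the factor Tcf7l1 represses part of the pluripotency network unless β-catenin relieves it. The Wnt target genes described here are a list of 9 named genes: Axin2, Nkd1, Rnf43, Lgr5 and Notum, which act in the cytoplasm, at the membrane or outside the cell, and Lef1, Tcf7, Sp5 and Cdx1, which encode transcription factors. All 9 were found among the 24594 genes in the count table, and all 9 were among the 15682 genes that passed the filter on low counts.

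Transcriptomes were measured in 24 libraries of untreated 129S6/SvEvTac mESCs grown in serum with LIF. The cells were WT or carried a CRISPR–Cas9 deletion of a noncatalytic subunit of the ISWI chromatin remodelers. Libraries carry a letter for their batch: A has 2 WT, 2 Rsf1∆ and 2 Wstf∆ (gene Baz1b) libraries, B has 2 WT and 2 Tip5∆ (Baz2a), C has 2 WT and 2 Bptf∆, D has 3 WT and 3 labelled Cecr2∆, and E has 2 WT and 2 Acf1∆ (Baz1a). Each line is 1 clone, set against the WT libraries that share its batch letter, so a clone and its deletion cannot be told apart, and p-values measure only the spread between these libraries. Rsf1∆ and Wstf∆ share the same WT libraries. The libraries held 13.4 M to 36.7 M counts with a median of 25.0 M, and 3 counts corresponded to 0.0837 to 0.22 normalised CPM (counts per M counts of the library). The targeted gene was lower in 4 lines, with log2 fold changes of −2.26 for Rsf1, −2.40 for Baz1b, −1.97 for Bptf and −1.72 for Baz1a. Baz2a differed by −0.26 in Tip5∆ (edgeR adjusted p = 0.0533), and Cecr2 was 0.37 higher on the log2 scale in the libraries labelled Cecr2∆ (adjusted p = 0.000154), so mRNA levels do not check either label. In batch C the RNA Rpph1, which lacks a poly(A) tail, reached 3298 to 4804 CPM in WT and Bptf∆ alike, against at most 3.39 CPM in the other 20 libraries. Summed levels of 6 embryonic stem cell markers were 2527 to 4117 CPM across all libraries, and no marker was at 0. Against the WT of their batch (2527 to 2618 CPM) they were higher in Rsf1∆ (3464 to 3468) and Wstf∆ (3763 to 3809). Bptf∆ (3898) was higher than its WT (2611 to 2677). So were the libraries labelled Cecr2∆ (3892 to 4117, WT 3436 to 3705) and Acf1∆ (3762 to 3911, WT 3182 to 3390). Tip5∆ (3020 to 3119) overlapped its WT (3086 to 3095). The marker Klf4 was over 2-fold higher in Wstf∆ (1.30, edgeR adjusted p = 3.1e-12) and Bptf∆ (1.14, adjusted p = 3.5e-11).

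For 2 of the members, promoter sequence held the core motif of Tcf/Lef factors, spelled CTTTGA and searched on both strands. The RefSeq annotation of GRCm38.p6 gave 11 windows of 250 bases before an annotated start for 6 members, and the motif was found in 2 of these windows. In all genes 13.8% of 32851 such windows held a match. Below are the window of Sp5, with 2 matches on the strand of the gene, the window of an internal Lef1 start, with 2 matches on the opposite strand (read as TCAAAG), and the window of the first Lef1 start, with no match. They are shown because Lef1 and Sp5 had the lowest log2 fold changes of the members. Sp5 (−2.05, SE 0.44) and Rnf43 (−1.99, SE 0.32) lay within error of each other in Wstf∆, and the Rnf43 windows, not shown, held no match. The windows shown lie on the plus strand, and capitals mark the matches.
Sp5, chr2:70474673-70474922: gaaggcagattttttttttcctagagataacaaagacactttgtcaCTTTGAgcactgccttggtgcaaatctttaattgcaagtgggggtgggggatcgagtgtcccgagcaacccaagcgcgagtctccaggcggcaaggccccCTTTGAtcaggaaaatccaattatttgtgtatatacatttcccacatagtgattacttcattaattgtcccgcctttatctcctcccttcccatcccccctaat
Lef1, internal start, chr3:131156044-131156293: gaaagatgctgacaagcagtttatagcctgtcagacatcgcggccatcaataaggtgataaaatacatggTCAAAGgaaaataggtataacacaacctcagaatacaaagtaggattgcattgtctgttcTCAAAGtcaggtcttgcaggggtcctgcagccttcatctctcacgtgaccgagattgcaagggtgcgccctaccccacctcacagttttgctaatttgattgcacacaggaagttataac
Lef1, first start, chr3:131110047-131110296: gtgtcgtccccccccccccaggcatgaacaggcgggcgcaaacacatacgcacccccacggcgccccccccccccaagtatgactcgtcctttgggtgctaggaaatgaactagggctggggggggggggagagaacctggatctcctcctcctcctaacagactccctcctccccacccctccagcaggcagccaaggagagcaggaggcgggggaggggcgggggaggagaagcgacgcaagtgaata
A match describes letters in these windows and is not evidence of a bound factor.

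In WT cells the members spanned a wide range of levels. Scaled by gene length, the mean over 11 WT libraries was highest for Tcf7, at 15.8 CPM per kb, followed by Notum at 5.80, Axin2 at 1.89, Cdx1 at 1.88, Sp5 at 1.21, Lef1 at 0.495, Nkd1 at 0.274, Rnf43 at 0.252 and Lgr5 at 0.0209 CPM per kb. The order was not equally firm at each step. Axin2 stood above Cdx1 in 5 of the 11 libraries, Lef1 above Nkd1 in 7 and Nkd1 above Rnf43 in 6, so these neighbours could not be ordered. Cdx1 stood above Sp5 in 10 of 11, and each of the other steps held in all 11.

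**Figure D1:**
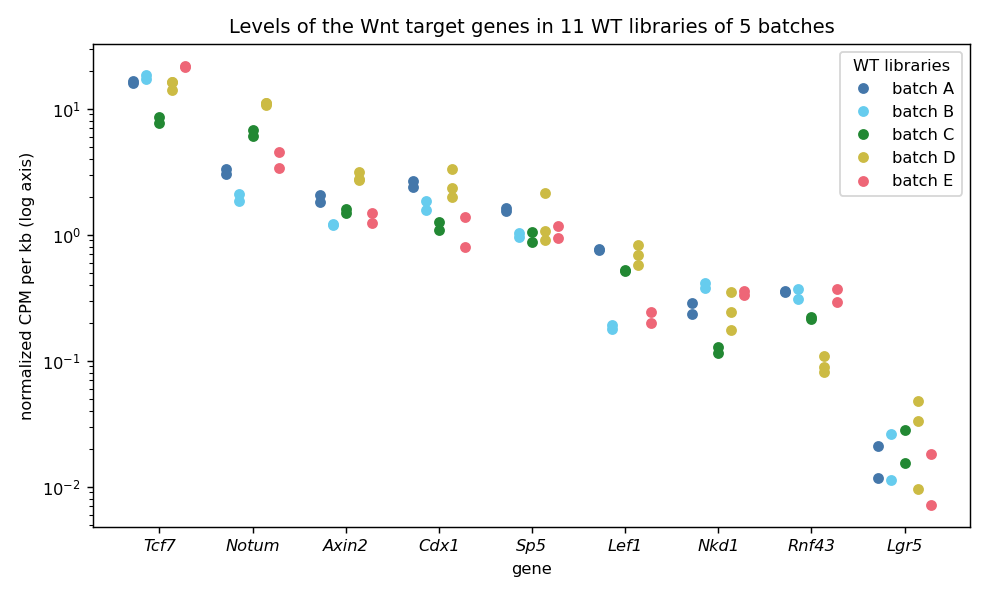
Normalised CPM per kb (log axis) of each gene in the 11 WT libraries, coloured by batch. Tcf7 stands above Notum in each of the 11 libraries, Lgr5 lies lowest, and the batches of Notum do not overlap.

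The WT libraries also differed between batches for most members, which sets the scale against which the deletions are read. In a joint test of the batch terms, 7 of the 9 members differed at an edgeR adjusted p under 0.01, where 73.1% of all genes tested did. Notum varied most, from a mean of 4.74 CPM in batch B to 26.3 CPM in batch D, a ratio of 5.56. Lef1 varied 4.08-fold, Rnf43 3.81-fold and Nkd1 3.25-fold between their lowest and highest batch. Sp5 (adjusted p = 0.124) and Lgr5 (adjusted p = 0.518) did not pass. Each line is therefore compared with the WT of its batch unless another comparison is named.

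Across the 54 combinations of a member and a line, 12 passed both an adjusted p under 0.01 and a 2-fold change (called below), of which 4 were higher and 8 lower than WT. Lines and WT did not overlap in any of the 12, but calls are selected on size against spread, so this adds nothing to them. In 5 of the 12 the mean of the line still lay within the range of all 11 WT libraries. At the adjusted p alone, 24 combinations passed, and the shares of all genes are given by line below. In a joint test of equal change in the 6 lines, 7 of the 9 members differed between lines at an adjusted p under 0.01, a share near that of all genes, of which 65.3% did. Lgr5 (adjusted p = 0.296) and Nkd1 (adjusted p = 0.0300) did not pass that test.

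**Figure D2:**
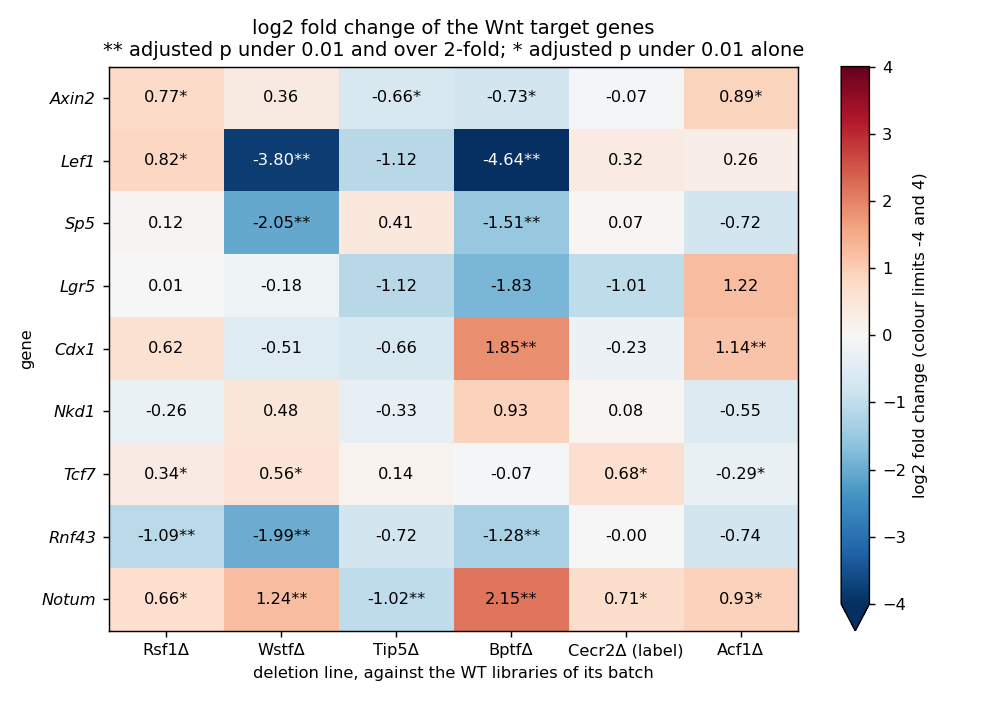
log2 fold change of each gene (rows) in each deletion line (columns) against the WT libraries of its batch, with 2 asterisks for called changes and 1 for an edgeR adjusted p under 0.01 alone. Lef1 in Wstf∆ and Bptf∆ is the lowest pair of values, at −3.80 and −4.64, and Notum in Bptf∆ is the highest called value, at 2.15.

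Wstf∆ and Bptf∆ held 9 of the 12 calls. In Wstf∆, 1 member was called higher and 3 lower, where 3.87% of all genes were called higher and 6.57% lower, and 5 members passed the adjusted p alone, where 34.7% of genes did. In Bptf∆, 2 members were called higher and 3 lower, where the shares of all genes were 5.25% and 8.59%, and 6 members passed the adjusted p alone, where 41.6% did. In Rsf1∆ no member was called higher and 1 lower (0.65% and 5.26% of all genes), and 5 passed the adjusted p alone (20.6%). In Tip5∆ the counts were 0 higher and 1 lower (0.0829% and 2.63%), with 2 at the adjusted p alone (9.07%). In Acf1∆ they were 1 higher and 0 lower (1.14% and 3.32%), with 4 at the adjusted p alone (31.8%). In the libraries labelled Cecr2∆ no member was called by edgeR or DESeq2 (0.784% of all genes higher and 2.33% lower by edgeR), 2 passed the adjusted p alone (18.4%), and 3 had an unadjusted p under 0.05 (38.9%). The median change over the members was −0.18 in Wstf∆ and −0.73 in Bptf∆, against −0.03 and 0.01 over all genes, with members moving both ways in each.

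Lef1 (chr3:131110297-131224357), a DNA-binding partner of β-catenin and itself a target of the pathway, showed the largest changes. In Wstf∆ it measured 0.289 and 0.659 CPM (4 and 9 counts) against 6.70 and 6.59 CPM in the WT of batch A (168 and 153 counts). The Wstf∆ libraries held almost no Lef1 transcript and the groups were far apart. The log2 fold change was −3.80 (SE 0.32, edgeR adjusted p = 1.91e-10), and the ratio of WT to Wstf∆ counts was 14.1 with a 95% counting interval of 8.11 to 26.7. In Bptf∆ it measured 0.299 and 0.0578 CPM (5 and 1 counts) against 4.57 and 4.49 CPM (87 and 77 counts). The second of these lies under the 3-count floor, so the size of the change is set by few reads. The log2 fold change was −4.64 (SE 0.40, adjusted p = 2.16e-10), and the count ratio of WT to Bptf∆ was 25.7 (11.6 to 71.0). Exact binomial intervals of this kind cover counting error only. Both calls held under every alternative tried for them, 15 for Wstf∆ and 13 for Bptf∆, but single libraries set their size. In Bptf∆ the value was −6.18 without the first replicate and −3.90 without the second, and in Wstf∆ it was −3.33 without the first replicate and −4.50 without the second.

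Rsf1∆, which shares its WT libraries with Wstf∆, did not lose Lef1. Its libraries measured 12.6 and 10.8 CPM, above both WT libraries, and the rise of 0.82 (SE 0.16, adjusted p = 0.000253) was under 2-fold. The direct difference of Wstf∆ minus Rsf1∆ was −4.62 (SE 0.29, adjusted p = 1.36e-12), a comparison that does not use the shared WT. In Tip5∆ the values were 0.876 and 0.624 CPM against 1.57 and 1.69 in WT, without overlap, and the log2 difference of −1.12 (SE 0.31) did not pass at adjusted p = 0.0139, although it was called with DESeq2 (adjusted p = 0.00899) and with 3 other alternatives. The libraries labelled Cecr2∆ (7.15 to 8.32 CPM, WT 5.03 to 7.29) and Acf1∆ (2.08 and 2.58, WT 1.74 and 2.14) overlapped WT. Their differences of 0.32 (adjusted p = 0.0653) and 0.26 (adjusted p = 0.384) did not pass.

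Sp5 (chr2:70474923-70477726), a zinc-finger factor induced by β-catenin, was lower in the same 2 lines. Wstf∆ libraries measured 0.722 and 0.878 CPM against 3.43 and 3.23 in WT. The groups did not overlap, and the log2 fold change was −2.05 (SE 0.44, adjusted p = 0.000359). Leaving out the first Wstf∆ replicate gave −1.92 with an adjusted p of 0.0104, which ended that call. Wstf∆ minus Rsf1∆ was −2.18 (SE 0.43, adjusted p = 0.000179).
In Bptf∆ it measured 0.539 and 0.867 CPM against 1.84 and 2.22 in WT. The log2 fold change of −1.51 (SE 0.48, adjusted p = 0.00961) lay at the threshold. The call was lost when any 1 of the 4 libraries was left out, with values between −1.22 (without the first Bptf∆ replicate) and −1.90 (without the second) and between them −1.37 and −1.65 without the second and first WT replicate, as well as with the newer form of the fit, with a stricter count filter and with a replicate block. Sp5 measured 1.23 and 1.45 CPM in Acf1∆ against 2.47 and 1.96 in WT, which did not pass (−0.72, SE 0.35, adjusted p = 0.0968). It did not pass in Rsf1∆ (0.12), Tip5∆ (0.41) or the libraries labelled Cecr2∆ (0.07) either.

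**Figure D3:**
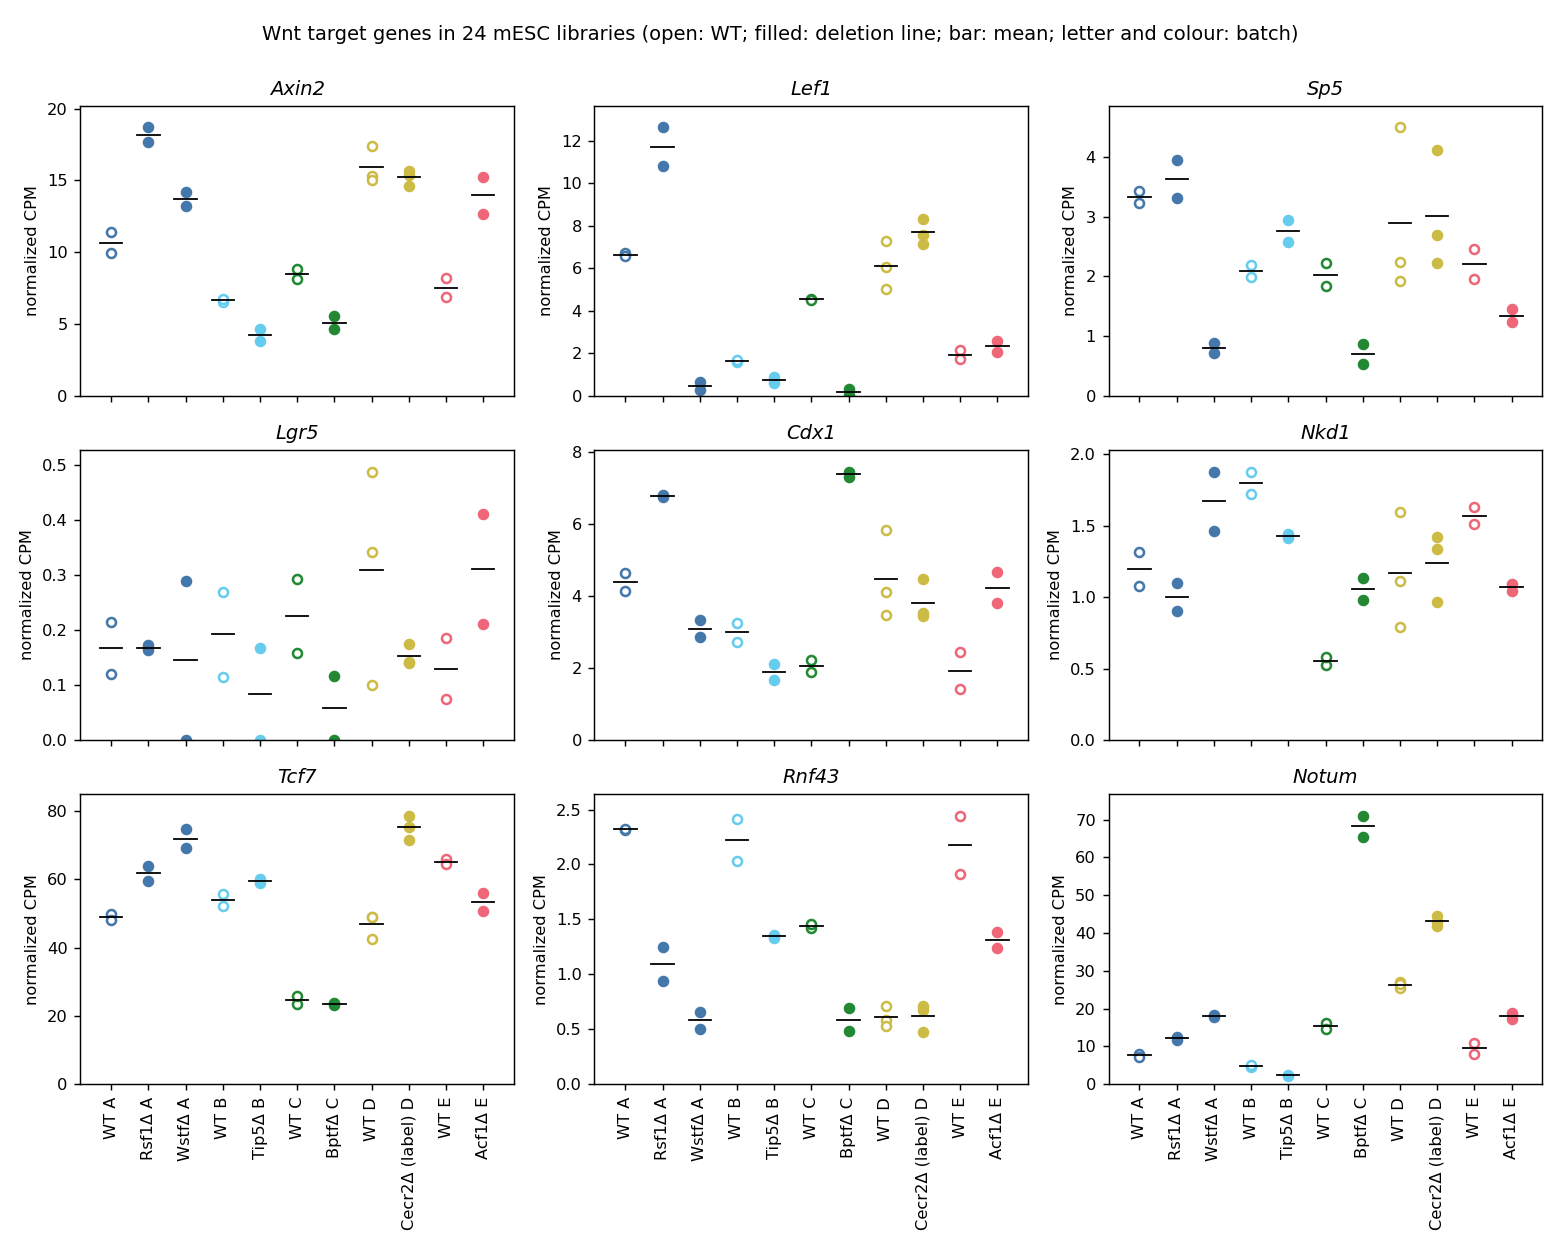
Normalised CPM of each gene in each of the 24 libraries (open circles WT, filled circles deletion lines, horizontal bars group means, colour and letter the batch), with each vertical axis starting at 0. Lef1 is near 0 in Wstf∆ and Bptf∆, Sp5 lies below WT in both, Notum in Bptf∆ stands at 65.5 and 71.0 CPM, and WT levels shift between batches.

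Cdx1 (chr18:61018862-61036199), a homeobox gene of the caudal family and a direct Wnt target in the embryo, moved the other way in Bptf∆. It measured 7.30 and 7.45 CPM against 1.89 and 2.22 in WT, clear of every WT library of all batches. The log2 fold change was 1.85 (SE 0.25, adjusted p = 6.52e-07) and the call held under all 13 alternatives tried. In Acf1∆ it measured 3.81 and 4.66 CPM against 2.43 and 1.41, a log2 fold change of 1.14 (SE 0.24, adjusted p = 0.000368). That call rested on single libraries: it was 0.80 (adjusted p = 0.0188) without the second WT replicate and 0.99 (adjusted p = 0.00954) without the second Acf1∆ replicate. Rsf1∆ stood at 6.74 and 6.80 CPM against 4.15 and 4.65 in WT and did not pass (0.62, SE 0.20, adjusted p = 0.0216), and Wstf∆ stood at 3.32 and 2.85 CPM (−0.51, SE 0.25, adjusted p = 0.106). The 2 lines of batch A differed from each other, with Wstf∆ minus Rsf1∆ at −1.13 (SE 0.24, adjusted p = 0.000394). Bptf∆ minus Wstf∆ was 2.36 (SE 0.36, adjusted p = 1.01e-05), so the pair of lines in which Lef1 had fallen differed at Cdx1.

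Over the members, 3 were called in Wstf∆ minus Rsf1∆ (Lef1, Sp5 and Cdx1), where 7.79% of all genes were called in either direction, and 2 in Bptf∆ minus Wstf∆ (Axin2 and Cdx1), where 8.09% were. Lef1 (−0.84, SE 0.73, adjusted p = 0.41) and Sp5 (0.54, SE 0.70, adjusted p = 0.604) did not pass between Bptf∆ and Wstf∆. With standard errors of this size, a moderate difference could not have been detected.

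Tcf7 (chr11:52246527-52283383), a Tcf/Lef factor that can activate targets with β-catenin, was never called but moved in 4 lines by less than 2-fold. The largest shift was in the libraries labelled Cecr2∆, at 78.7, 75.4 and 71.7 CPM against 42.6, 49.0 and 49.1 in WT (0.68, SE 0.06, adjusted p = 1.51e-09). It rose in Wstf∆ (69.1 and 74.9 against 49.8 and 48.0 CPM, 0.56, adjusted p = 1.59e-06) and Rsf1∆ (64.0 and 59.7 CPM, 0.34, adjusted p = 0.00114), and fell in Acf1∆ (56.1 and 50.8 against 65.9 and 64.6 CPM, −0.29, adjusted p = 0.00284). Groups did not overlap in any of these 4. In Bptf∆ the values of 23.8 and 23.1 CPM lay within or just below the WT values of 23.4 and 25.8. Tcf7 overlaps Skp1, which had up to 12991 counts in a library, and whether the counting used strand is not given in the sources used here, so its level is uncertain. The Skp1 differences in these 4 lines were 0.13, −0.15, −0.11 and 0.07 on the log2 scale, none of which passed.

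Among the brakes on the pathway, Notum (chr11:120653788-120661193), a secreted enzyme that removes the lipid from Wnt ligands, passed the adjusted p in all 6 lines. In Bptf∆ it measured 65.5 and 71.0 CPM against 16.2 and 14.6 in WT, a log2 fold change of 2.15 (SE 0.10, adjusted p = 7.22e-16) that was called under all 13 alternatives. In Wstf∆ it measured 17.8 and 18.4 CPM against 8.06 and 7.23 (1.24, SE 0.12, adjusted p = 3.12e-09). It rose by less than 2-fold in Acf1∆ (17.2 and 18.9 against 8.07 and 10.9 CPM, 0.93, adjusted p = 1.31e-07), in the libraries labelled Cecr2∆ (41.7 to 44.6 against 25.5 to 26.9 CPM, 0.71, adjusted p = 2.01e-08) and in Rsf1∆ (12.5 and 11.6 CPM, 0.66, adjusted p = 8.55e-05). Tip5∆ was the exception, at 2.50 and 2.16 CPM against 4.45 and 5.02 (−1.02, SE 0.17, adjusted p = 6.14e-05). The groups were separate in each line, although the Rsf1∆, Wstf∆ and Acf1∆ values lay inside the range that WT libraries of other batches reached. The Tip5∆ change is at the 2-fold limit: it was −0.93 without the second WT replicate and −0.92 without the second Tip5∆ replicate, which ended the call. Against all 11 WT libraries with no batch term the Wstf∆ value was 0.37 (adjusted p = 0.644).

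Rnf43 (chr11:87663087-87735539), a ubiquitin ligase that removes Frizzled receptors from the cell surface, was called lower in 3 lines and higher in none. Wstf∆ measured 0.506 and 0.659 CPM against 2.31 and 2.33 in WT (−1.99, SE 0.32, adjusted p = 1.31e-05). Bptf∆ measured 0.479 and 0.693 against 1.42 and 1.46 (−1.28, SE 0.34, adjusted p = 0.00249). Rsf1∆ measured 1.25 and 0.936 (−1.09, SE 0.25, adjusted p = 0.00126). No group overlapped its WT, but WT libraries of batch D (0.529 to 0.712 CPM) were as low as Wstf∆ and Bptf∆. Single libraries carried some of these calls. In Rsf1∆ the value was −1.09 without either WT replicate (adjusted p = 0.0102 for each) and −0.89 without the second Rsf1∆ replicate (adjusted p = 0.0382), and in Bptf∆ it was −1.30 and −1.26 without the first and second WT replicate and −1.05 without the first Bptf∆ replicate (adjusted p = 0.0125, 0.0142 and 0.0422). Tip5∆ (−0.72, adjusted p = 0.0388) and Acf1∆ (−0.74, adjusted p = 0.0122) were lower without passing, and the libraries labelled Cecr2∆ measured 0.474 to 0.711 CPM, overlapping WT.

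Axin2 (chr11:108917828-108950783), the scaffold of the destruction complex that is widely used as a readout of the pathway, was called in no line. It rose in Rsf1∆ (17.7 and 18.7 against 9.93 and 11.4 CPM, 0.77, SE 0.12, adjusted p = 7.27e-06) and in Acf1∆ (15.3 and 12.6 against 6.85 and 8.18 CPM, 0.89, SE 0.12, adjusted p = 1.61e-06). It fell in Tip5∆ (3.81 and 4.62 against 6.55 and 6.75 CPM, −0.66, SE 0.15, adjusted p = 0.0023) and in Bptf∆ (5.57 and 4.62 against 8.14 and 8.81 CPM, −0.73, SE 0.15, adjusted p = 0.000236). Axin2 therefore went up and down in different lines by amounts under 2-fold. Wstf∆, in which Lef1 and Sp5 fell, stood at 14.2 and 13.2 CPM, above WT (0.36, SE 0.13, adjusted p = 0.0215), and Bptf∆ minus Wstf∆ was −1.10 (SE 0.20, adjusted p = 0.000111). The gene starts 1.79 Mb beyond the end of Bptf on chromosome 11.

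Nkd1 (chr8:88521342-88594887), an inhibitor that binds Dishevelled, and Lgr5 (chr10:115450314-115587780), an R-spondin receptor and stem cell marker of adult epithelia, passed in no line. Nkd1 came closest in Bptf∆, at 1.14 and 0.982 CPM against 0.525 and 0.584 in WT (0.93, SE 0.40, adjusted p = 0.0543). Its values over all libraries ran from 0.525 to 1.88 CPM, and both ends of that range were WT libraries. Lgr5 had at most 0.488 CPM in any library with 15 counts in the highest, and was at 0 in 1 library each of Wstf∆, Tip5∆ and Bptf∆. Its log2 differences of −1.83 to 1.22 had standard errors of 0.60 to 1.28, so no change was detectable at this depth.

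The members did not move as a block. Over the 24 libraries, after subtracting the WT mean of the batch, the correlations of the 28 pairs of members other than Lgr5 ran from −0.73 (Sp5 and Notum) to 0.75 with a median of −0.07. These libraries share clones and batches, so this is a description of the 24 points. By the same measure the genes most like Lef1 were Ccno (r = 0.984) and Rnf17 (r = 0.971), those most like Axin2 were Soga3 (0.953) and 9330159F19Rik (0.947), and those most like Notum were Smarcd3 (0.974) and Nxn (0.967). For Tcf7 they were Tfdp2 (0.974) and Stac2 (0.959), for Rnf43 Stard13 (0.942) and Ptpn13 (0.935), for Sp5 Cep152 and Tbc1d9 (0.917 each), for Cdx1 Ssr2 (0.926) and Cdip1 (0.899), and for Nkd1 Rab11fip3 (0.880) and Cd80 (0.879).

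Upstream of the targets, the Wnt ligands were the pathway list with the most calls. Of 19 ligand genes, 13 were tested, and for the pathway lists rose and fell are used below of called changes only. In Rsf1∆ 7 were called lower and none higher (5.26% and 0.65% of all genes), and in Wstf∆ 6 lower and 1 higher (6.57% and 3.87%). Acf1∆ had 4 lower (3.32%), and Bptf∆ had 3 lower and 2 higher (8.59% and 5.25%). Tip5∆ (2.63%) and the libraries labelled Cecr2∆ (2.33%) had 1 lower each. The median log2 change over the 13 was −1.03 in Rsf1∆, −1.17 in Wstf∆, −0.77 in Tip5∆, −0.81 in Bptf∆, −0.74 in the libraries labelled Cecr2∆ and −0.32 in Acf1∆, against −0.03 to 0.01 over all genes. Wnt7b, the most abundant of them, fell from 33.7 to 7.40 CPM in Rsf1∆ (−2.19, SE 0.12, adjusted p = 7.84e-14), from 21.6 to 3.61 in Bptf∆ (−2.58, SE 0.15, adjusted p = 8.86e-14) and from 16.9 to 3.26 in Acf1∆ (−2.38, SE 0.14, adjusted p = 6.97e-13). It was also called in Wstf∆ (−2.15), a value picked here after the results were seen. Wnt4 fell from 11.7 CPM to 2.85 in Rsf1∆ (−2.04, SE 0.16) and to 0.618 in Wstf∆ (−4.23, SE 0.25), and from 2.19 to 0.553 in the libraries labelled Cecr2∆ (−2.01, SE 0.21). In Bptf∆ Wnt4 had 2 and 3 counts and the count ratio of WT to Bptf∆ was 19.2 (7.95 to 60.3). In Tip5∆ the ligand called was Wnt11, from 6.17 to 1.70 CPM (−1.85, SE 0.19, adjusted p = 4.14e-08). Wls, which carries Wnt proteins to the cell surface, fell in Wstf∆ (−2.51, SE 0.19, adjusted p = 3.74e-11), Rsf1∆ (−1.47, SE 0.15, adjusted p = 1.79e-08) and Acf1∆ (−1.20, SE 0.15, adjusted p = 5.83e-07). Of the 5 tested genes for Wnt secretion and R-spondins, Rspo3 also fell. Its count ratio of WT to line was 31.9 (5.50 to 1282) in Wstf∆ and 3.47 (1.96 to 6.48) in Rsf1∆. DESeq2 called 1 of the 5 lower in Rsf1∆, not 2. Porcn was higher by less than 2-fold in Rsf1∆ (0.99), Wstf∆ (0.47), Acf1∆ (0.57) and the libraries labelled Cecr2∆ (0.56), and lower in Bptf∆ (−0.92), each at an adjusted p under 0.01.

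**Figure D4:**
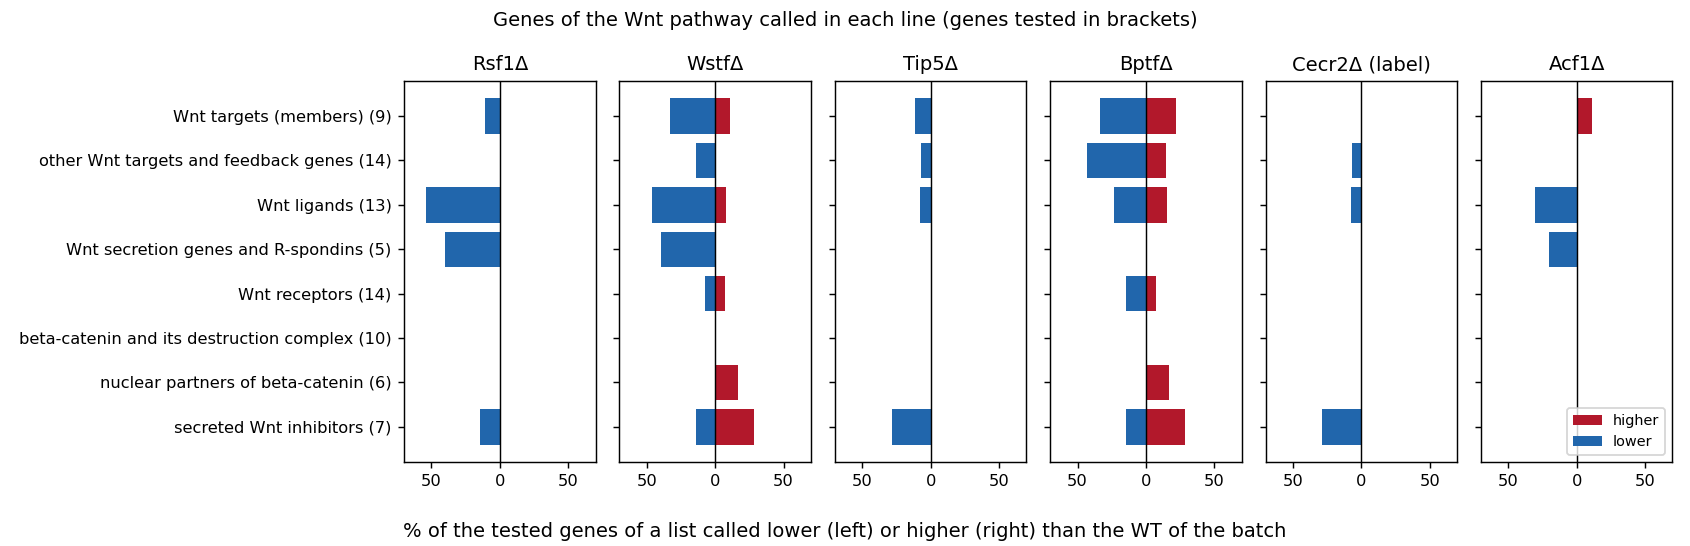
Share of the tested genes of each list of pathway genes (number tested in brackets) called lower (blue, to the left) or higher (red, to the right) than WT in each line. The longest bar of the ligands is 7 of 13 called lower in Rsf1∆ (5.26% of all genes). That of the other targets is 6 of 14 called lower in Bptf∆ (8.59%), and β-catenin with its destruction complex has no call in any line.

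The machinery between ligand and target comes next. Of 10 genes for β-catenin, its destruction complex and Dishevelled, none was called in any line by edgeR or DESeq2. At an unadjusted p under 0.05, with no fold minimum, 8 of them passed in Bptf∆ (57.6% of all genes did), 7 in Acf1∆ (49.9%), 5 in Wstf∆ (52.3%), 3 in Rsf1∆ (39.4%), 3 in the libraries labelled Cecr2∆ (38.9%) and 2 in Tip5∆ (28.2%), and their median change lay between −0.16 in Acf1∆ and 0.36 in Bptf∆. Of 14 receptor genes, 1 was called higher and 1 lower in Wstf∆ (3.87% and 6.57% of all genes), 1 higher and 2 lower in Bptf∆ (5.25% and 8.59%), and none in the other 4 lines. The R-spondin receptor Lgr6 rose from 1.61 to 5.45 CPM in Wstf∆ (1.77, SE 0.25, adjusted p = 2.35e-06) and Fzd10 rose from 20.7 to 41.7 CPM in Bptf∆ (1.01, SE 0.10, adjusted p = 2.1e-09), a change at the 2-fold limit that DESeq2 did not call. Fzd1 fell from 2.19 to 0.692 CPM in Wstf∆ (−1.66, SE 0.39, adjusted p = 0.00109) and from 1.94 to 0.796 CPM in Bptf∆ (−1.28, SE 0.38, adjusted p = 0.00636), and Fzd4 fell from 5.03 to 1.999 CPM in Bptf∆ (−1.33, SE 0.22, adjusted p = 9.79e-06). Of 6 nuclear partners of β-catenin, Pygo1, a reader of histone H3 methylation in the β-catenin complex, was the one called, in Wstf∆ (1.92, SE 0.33, adjusted p = 2.82e-05) and Bptf∆ (2.29, SE 0.31, adjusted p = 6.52e-07). Tcf7l1, also on this list, was lower by less than 2-fold in Rsf1∆ (−0.97, adjusted p = 1.52e-08) and Acf1∆ (−0.87, adjusted p = 5.1e-08). It did not pass in the other lines.

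Of 12 secreted inhibitors, 7 were tested. Sfrp1, which binds Wnt ligands outside the cell, rose from 101 to 301 CPM in Wstf∆ (1.58, SE 0.06, adjusted p = 5.92e-18) and from 123 to 426 CPM in Bptf∆ (1.80, SE 0.06, adjusted p = 1.74e-19). Sfrp2 rose from 5.88 to 30.9 CPM in Bptf∆ (2.39, SE 0.12, adjusted p = 3.9e-15). Dkk1, an inhibitor of the Lrp co-receptors and itself a Wnt target, fell in Tip5∆ (−1.75, SE 0.31, adjusted p = 0.000184), in the libraries labelled Cecr2∆ (−1.24, SE 0.25, adjusted p = 0.00047) and in Bptf∆ (−3.29, SE 0.46, adjusted p = 9.32e-07). Frzb, another member of the Sfrp family, went the other way at few counts. It was called lower in Wstf∆, with 0 and 1 counts and a count ratio of WT to Wstf∆ of 35.9 (6.21 to 1440), in Rsf1∆, with a ratio of 4.80 (2.62 to 9.51), in Tip5∆, with a ratio of 11.7 (3.71 to 59.1), and in the libraries labelled Cecr2∆, with a ratio of 21.5 (3.45 to 888). In all, 2 inhibitors were called higher and 1 lower in Wstf∆ (3.87% and 6.57% of all genes) and in Bptf∆ (5.25% and 8.59%). The counts were 0 and 2 in Tip5∆ (0.0829% and 2.63%) and in the libraries labelled Cecr2∆ (0.784% and 2.33%). They were 0 and 1 in Rsf1∆ (0.65% and 5.26%), and Acf1∆ had none (1.14% and 3.32%).

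A list of 14 other Wnt targets and feedback genes, all tested, gave 2 higher and 6 lower in Bptf∆ (5.25% and 8.59% of all genes). Wstf∆ had 2 lower (6.57%), and Rsf1∆ and Acf1∆ had none. Tip5∆ (2.63%) and the libraries labelled Cecr2∆ (2.33%) had 1 lower each, in both cases Dkk1. The lists share genes: Dkk1 was counted above with the inhibitors, and T and Cdx2 also stand in marker lists below. The largest in Bptf∆ were T, the primitive streak gene Brachyury, with 1 count in each library and a count ratio of WT to Bptf∆ of 23.5 (6.17 to 199), and Cdx2, with 1 and 2 counts and a ratio of 10.3 (3.24 to 52.7). Cdx2 thus fell where its relative Cdx1 rose. In Wstf∆ the calls were Ascl2, from 4.76 to 1.60 CPM (−1.57, SE 0.24, adjusted p = 5.84e-06), and Sp8, a relative of Sp5, with 0 and 4 counts and a ratio of 7.41 (2.73 to 28.2). Of 7 pluripotency genes repressed by Tcf7l1, 3 rose in Bptf∆ (5.25% of all genes), namely Tfcp2l1 (1.46, SE 0.09), Tbx3 (1.34, SE 0.08) and Esrrb (1.19, SE 0.06). In Wstf∆ 2 rose (3.87% of all genes), Tbx3 (1.49, SE 0.07) and Tfcp2l1 (1.13, SE 0.09). The edgeR adjusted p of these calls lay between 5.44e-15 and 3.8e-11. At the adjusted p alone, 7 were higher in Bptf∆ (41.6% of all genes passed in either direction), 6 in Wstf∆ (34.7%) and 6 in Rsf1∆ (20.6%). In the libraries labelled Cecr2∆ 4 were higher and Nr0b1 lower (18.4% of all genes), in Acf1∆ Nr0b1 was higher and Nanog lower (31.8%), and in Tip5∆ none passed. None of the 7 was called lower in any line or higher in the other 4 lines.

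Markers of other cell states also changed, including in the libraries labelled Cecr2∆, where no member was called. Summed levels of 7 primitive endoderm markers were 329.6 to 338 CPM in the WT of batch A against 139 to 147 in Rsf1∆ and 133 to 139 in Wstf∆, 145 to 153 against 13.9 to 14.4 in the batch of Bptf∆, 333 to 353 against 73.1 to 80.2 in that of Tip5∆ and 101 to 117 against 29.5 to 34.1 in that of the libraries labelled Cecr2∆. Acf1∆ (269 to 306, WT 242 to 249) had none of the 7 called. The number called lower was 6 in Rsf1∆ (5.26% of all genes), 5 in Wstf∆ (6.57%) and 7 in Tip5∆ (2.63%). It was 7 in Bptf∆ (8.59%) and 6 in the libraries labelled Cecr2∆ (2.33%), and 3.32% of all genes were called lower in Acf1∆. Called higher were 0.65% of all genes in Rsf1∆, 3.87% in Wstf∆ and 0.0829% in Tip5∆. That share was 5.25% in Bptf∆, 0.784% in the libraries labelled Cecr2∆ and 1.14% in Acf1∆. The same shares apply to the marker lists that follow. Summed levels of 4 markers of primed pluripotency were 454.5 to 459.9 CPM in WT against 176 to 178 in Wstf∆, and 412 to 427 in WT against 112 to 116 in Bptf∆, and all 4 were called lower in both. They were 347 to 355 CPM in Rsf1∆ (the same WT libraries as for Wstf∆) and 235 to 266 in Acf1∆ (WT 259 to 273). Fgf5 was called lower in each. Tip5∆ had 288 to 293 CPM (WT 310.2 to 314), with none called. The libraries labelled Cecr2∆ had 302 to 314 (WT 322 to 338), with Fgf5 called higher (1.52, adjusted p = 0.00344). That sum was mostly Dnmt3b (mean 314 CPM over all WT libraries), which differed by −0.22 there (adjusted p = 0.000853). Otx2 (0.84, adjusted p = 8.54e-11) and Pou3f1 (0.64, adjusted p = 1.75e-06) were higher in these libraries by less than 2-fold, and the median change of the 4 was 0.74. Summed levels of 6 trophectoderm markers, of which 5 were tested, were 433 to 439.5 CPM in the WT of batch A against 101 to 102 in Rsf1∆ and 72.1 to 75.3 in Wstf∆, and 172 to 174 against 61.5 to 67.1 in the batch of Bptf∆, and 3 were called lower in each of these lines. They were 112 to 133 CPM against 76.1 to 80.8 in the libraries labelled Cecr2∆, with 3 called lower, 245 to 254 against 159 to 161 in Acf1∆, with 2 called lower, and 342 to 354 against 209.9 to 226 in Tip5∆, with none called. Summed levels of 8 primitive streak and mesoderm markers were 15.9 to 18.6 CPM in Bptf∆ against 6.98 to 7.41 in its WT, and 6.11 to 10.3 CPM in the other libraries, and no such marker was at 0 in all libraries of a group. Of the 7 tested, 1 was called higher and 1 lower in each of Wstf∆ and Bptf∆, 1 higher in the libraries labelled Cecr2∆, 1 lower in each of Tip5∆ and Acf1∆ and none in Rsf1∆. The higher sum in Bptf∆ was that of Kdr, at 11.99 CPM against 1.88 in WT, while T fell there (above). Kdr, the receptor Vegfr2, was called higher in Bptf∆ (2.67) and the libraries labelled Cecr2∆ (1.03) and lower in Wstf∆ (−1.55) and Tip5∆ (−1.61). Eomes was called higher in Wstf∆ (1.05), and Gsc, with 1 and 2 counts, was called lower in Acf1∆ with a count ratio of WT to Acf1∆ of 6.79 (2.01 to 35.7), a call that DESeq2 did not make. Of 5 neural markers, 3 were tested, with summed levels of 16.8 to 31.4 CPM in all libraries. Sox1 was called higher in Wstf∆ (1.87) and Bptf∆ (2.26), Pax6 lower in Wstf∆ (−2.02), Bptf∆ (−1.51) and Acf1∆ (−1.34), and Map2 lower in Bptf∆ (−1.69). The part of these cell states in the changes of the Wnt targets was not tested, and in bulk RNA fewer cells of a kind and less transcript per cell cannot be told apart.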

How the data were processed

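Gene counts of 24 mESC libraries, all labelled polyA RNA although batch C holds much Rpph1, were used as the authors deposited them: raw counts per gene, made by the authors with QuasR (spliced alignment with HISAT2 to mm10, UCSC known genes), with no normalisation. Base calling with bcl2fastq 2.17 is named in the submitters' processing notes. Strand and multimapping settings of the counting are not given in the sources used here. Groups, replicates and batch letters came from the sample names. Counts were fitted in R 4.3.3 with edgeR 4.0.16: filterByExpr by genotype, TMM factors, 1 quasi-likelihood fit (legacy form) over all libraries with batch and genotype as terms, and Benjamini-Hochberg adjustment over the 15682 genes tested. A gene was called at an adjusted p under 0.01 and a fold change over 2. Normalised CPM use TMM-scaled library sizes; CPM per kb divides by the gene width in the table. The test was checked on simulated counts. DESeq2 1.42.0 and the other alternatives are given in the closing section. Replicates of a group differed beyond sampling noise (chi-square per gene 1.38 to 20.4 over 15 pairs), so none was counted once.

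Members and gene lists were chosen with earlier results of these data known. All 9 members are named, and per list and line at most 3 called genes with the largest change, plus the 2 genes most like each member with a mean of at least 10 counts, among genes with a mean of at least 50. The floor for low values was 3 counts in a library. Pearson correlations used log2 CPM with a prior count of 2. Promoter windows of RefSeq (GRCm38.p6) were used for 6 members; the windows of Lgr5, Notum and Cdx1 were not used here. Not every gene in the table has a RefSeq symbol (24570 of 24594).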

Additional observations from a re-analysis of the deposited data

Results flagged for a closer look

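These members changed by different amounts in the 6 lines, by the joint edgeR test with Benjamini-Hochberg adjustment over all genes. The adjusted p was 3.09e-13 for Lef1, 2.66e-12 for Notum, 1.22e-08 for Axin2, 1.71e-08 for Tcf7, 3.27e-07 for Cdx1, 0.000235 for Sp5 and 0.00461 for Rnf43. The direct differences of 2 lines that passed both the adjusted p and a 2-fold minimum were those of Wstf∆ minus Rsf1∆ for Lef1 (−4.62), Sp5 (−2.18) and Cdx1 (−1.13), and those of Bptf∆ minus Wstf∆ for Cdx1 (2.36) and Axin2 (−1.10), all on the log2 scale. Rsf1∆ and Wstf∆ come from the same batch, while Wstf∆ and Bptf∆ come from different batches, each set against its own WT.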

How the results depend on the processing

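No called member reversed under any alternative. Lef1 in Wstf∆ and Bptf∆ and Cdx1 and Notum in Bptf∆ were called under each alternative tried for them. Leaving out each library in turn gave 0 to 1 members called in Rsf1∆ and in Tip5∆, 3 to 4 in Bptf∆ (5 with all libraries) and 1 to 2 in Acf1∆. The 2 in Acf1∆, without the second WT replicate, were Axin2 and Notum, with Cdx1 lost. Without a batch term, against all 11 WT libraries, the calls were 0 in Rsf1∆, 2 in Wstf∆, 0 in Tip5∆, 1 in the libraries labelled Cecr2∆ and 0 in Acf1∆. At the adjusted p alone they were 5 in Rsf1∆, 2 in Tip5∆, 2 in the libraries labelled Cecr2∆ and 4 in Acf1∆. Tip5∆ had 2 calls, Lef1 and Notum, with library sizes only, with no filter, with only its own WT and with DESeq2. Members not called that reversed without a batch term were Lgr5 (−0.36) and Notum (−0.21) in Rsf1∆, Nkd1 in Tip5∆ (0.18) and Bptf∆ (−0.25), Axin2 (0.54), Cdx1 (0.21) and Nkd1 (−0.02) in the libraries labelled Cecr2∆, and Lef1 (−0.90) and Tcf7 (0.16) in Acf1∆. Without a batch term the WT batches, which differ, enter the difference; called values that then moved by over 1.5 times were Lef1 (−3.19) and Notum (0.37) in Wstf∆, Notum in Tip5∆ (−2.59), Cdx1 in Bptf∆ (1.16) and Cdx1 in Acf1∆ (0.36). Rnf43 in the libraries labelled Cecr2∆ reversed to 0.02 with a replicate block and to 0.01 with only its own WT. Leave-one-out ranges that crossed 0 were −0.01 to 0.24 for Sp5 and −0.36 to 0.47 for Lgr5 in Rsf1∆, −5.11 to 0.78 for Lgr5 in Wstf∆, −0.14 to 0.01 for Tcf7 in Bptf∆ and, in the libraries labelled Cecr2∆, −0.11 to 0.00 for Axin2, −0.23 to 0.53 for Sp5, −0.39 to 0.00 for Cdx1, −0.12 to 0.36 for Nkd1 and −0.10 to 0.17 for Rnf43. Where 1 library of a group was left, its spread was taken from the other groups. Same-numbered replicates did not deviate together (r from −0.07 to 0.05 over the 6 lines, where both pairs of a line with 2 replicates give the same r), so the numbers do not pair the samples; a replicate block gave 4 calls in Bptf∆, losing Sp5 (−1.53, adjusted p = 0.0211), left the counts of the other 5 lines unchanged, and gave 6 members that differed between lines, losing Rnf43. Depth limits Lgr5 and the low values of Lef1, Sp5 and Rnf43.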
